A study of Mus musculus with 6 samples.

Results

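The genes described here are 7 that encode the potassium and proton channels best known from microglia, the resident macrophages of the brain: Kcnn4, Kcna3, Kcnj2, Kcnk6, Kcnk13, Kcnmb4 and Hvcn1. They were chosen by name, and each is taken from the probe set whose only listed gene symbol is that gene. Every gene had exactly 1 such probe set, so 7 of 23410 probe sets with a listed gene make up the group. All 7 were tested without any filter on signal.

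RNA from primary cultured microglia was measured on 6 Affymetrix whole-transcript arrays. The 3 fosB-null arrays came from mice homozygous for the null allele fosBG, bred by intercrossing heterozygotes that had been backcrossed to C57BL/6J to generation N20, and the 3 wild-type arrays came from C57BL/6J mice. In both groups microglia were collected from the cerebral cortex of pups aged 2 days after 10 days of culture, replated for 24 h and left untreated. The labels call the arrays biological replicates 1 to 3, but do not say how many pups or which sexes gave a culture, so p-values measure the spread between these arrays. Microglial markers were bright on all arrays, with a mean log2 signal over 7 markers of 11.34 to 11.48 in fosB-null and 11.25 to 11.46 in wild-type arrays. For astrocyte markers the same mean was 7.16 to 7.24 in both groups, and all 6 of these markers held identical values in same-numbered arrays. Border macrophage markers had a mean of 9.29 to 9.55 in fosB-null and 9.16 to 9.42 in wild-type arrays, higher in fosB-null arrays by 0.12, 0.12 and 0.08 in pairs 1, 2 and 3. Oligodendrocyte lineage markers had 8.17 to 8.35 in fosB-null and 8.25 to 8.49 in wild-type arrays, differing by -0.24, -0.13 and 0.03 in the pairs. The means over the endothelial, neuronal, blood leukocyte and fibroblast or mural cell markers differed by at most 0.04 in any pair, which does not bound single markers. No marker passed the adjusted threshold in limma, and the part of these cells in the results on the channels was not tested. Signals of different probe sets are on scales of their own, so these levels describe the arrays and do not rank genes.

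Microglia use potassium channels to hold the membrane negative, which drives calcium entry and sets how the cells move, divide and release cytokines. Kcnn4 encodes KCa3.1, a channel opened by calcium through calmodulin that is bound to it. Kcna3 encodes the voltage-gated channel Kv1.3, and Kcnj2 the inward rectifier Kir2.1 that dominates the resting conductance of cultured microglia. Kcnk6 and Kcnk13 encode TWIK-2 and THIK-1, background channels with tandem pore domains; potassium leaving through them is linked to activation of the inflammasome. Kcnmb4 encodes an auxiliary subunit of the large-conductance calcium-activated potassium channel, and Hvcn1 the proton channel Hv1, which removes acid formed while the NADPH oxidase works.

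The design has fosB-null microglia set against wild-type, where Fosb encodes a member of the AP-1 transcription factors. None of the 7 genes passed the adjusted threshold. Kcnn4 had the largest difference among them, 1.26-fold higher in fosB-null microglia (limma unadjusted p = 0.0304, adjusted p = 1). The other 6 genes differed by at most 1.05-fold. Over all 23410 probe sets limma called 1 at an adjusted p under 0.05, or 0.00427%, against 0 of the 7. An unadjusted p under 0.05 was reached by 1 of the 7, Kcnn4, and by 0.722% of all tested probe sets. The median difference of the 7 was -0.0080 on the log2 scale, beside 0.00 over all tested probe sets.

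**Figure D1:**
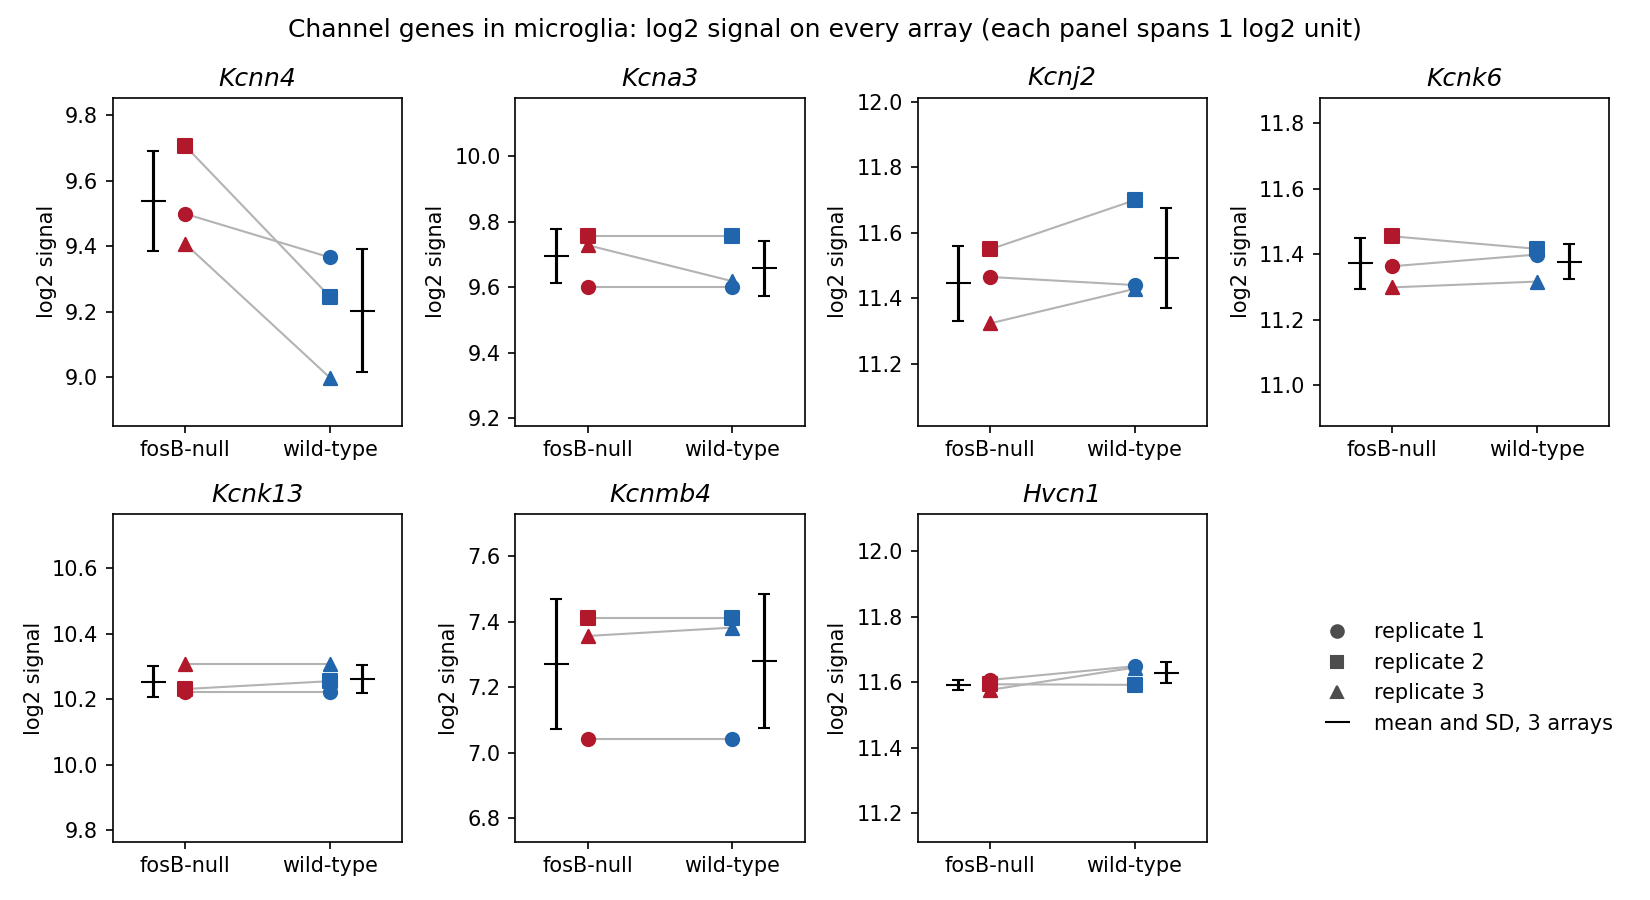
Log2 signal of each channel gene on every array, with fosB-null arrays in red and wild-type arrays in blue. Lines join arrays of the same replicate number, bars give the mean and SD over 3 arrays, and every panel spans 1 log2 unit. The Kcnn4 arrays of the groups do not overlap, and those of the other 6 genes do.

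Kcnn4 had a log2 signal of 9.50, 9.71 and 9.41 on fosB-null arrays 1, 2 and 3, against 9.37, 9.25 and 8.999 on wild-type arrays 1, 2 and 3. Every fosB-null array was above every wild-type array, but the gap between the lowest fosB-null and the highest wild-type array was narrow beside the spread within each group. Such a separation in either direction was found in 262 of all tested probe sets, or 1.12%, and with the fosB-null arrays higher in 96, or 0.41%. The group means were 9.54 ± 0.15 in fosB-null and 9.20 ± 0.19 in wild-type arrays (SD, n = 3 each). The difference was 0.33 on the log2 scale with a standard error of 0.12 and a 95% interval of 0.04 to 0.63. It was positive in all 3 pairs of same-numbered arrays, at 0.13, 0.46 and 0.41. A difference at least this high was found in 143 of the 23410 tested probe sets, or 0.611%. In such cultures a larger share of cells that express a gene and more RNA per cell cannot be told apart.

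Same-numbered arrays shared many identical values, so the replicate number was also fitted as a block. With it the limma unadjusted p of Kcnn4 was 0.0549 and the adjusted p 0.674. A random block on that number gave an SE of 0.06 (limma unadjusted p = 0.00150, adjusted p = 0.153). This fit applied 1 correlation between same-numbered arrays, 0.956, to all probe sets, those with ties included. Over probe sets tied in no pair, same-numbered arrays deviated together less, at r = 0.724, 0.326 and 0.320. The random block put 9.63% of all tested probe sets under an unadjusted p of 0.05. How far it suits untied genes such as Kcnn4 was not tested. That fit called 47 of all tested probe sets, or 0.201%, and 0 of the 7 channel genes. The unadjusted p was above 0.05 in 4 of the 6 fits without a single array. Without wild-type replicate 3, the array with the lowest Kcnn4 signal, the difference was 0.23 (limma unadjusted p = 0.0918), and without fosB-null replicate 2, the array with the highest, it was 0.25 (unadjusted p = 0.0940).

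The promoter of Kcnn4 is shown because its gene had the largest difference and because FosB acts through AP-1 sites. That of Kcnj2 is shown beside it because both hold the same pair of motifs, and that of Kcna3 because it holds only one of them. The sequences are the 250 bases before the annotated start from RefSeq on GRCm38.p6, all on the plus strand: chr7:24370013-24370262 for Kcnn4, chr11:111065914-111066163 for Kcnj2 and chr3:107035912-107036161 for Kcna3. Capitals mark each match to the E-box CACGTG or, on either strand, to the GC box GGGCGG.
Kcnn4: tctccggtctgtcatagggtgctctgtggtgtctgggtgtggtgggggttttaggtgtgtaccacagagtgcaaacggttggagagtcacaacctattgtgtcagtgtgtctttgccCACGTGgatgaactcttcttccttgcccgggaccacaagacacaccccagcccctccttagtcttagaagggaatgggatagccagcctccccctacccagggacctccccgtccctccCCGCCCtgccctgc
Kcnj2: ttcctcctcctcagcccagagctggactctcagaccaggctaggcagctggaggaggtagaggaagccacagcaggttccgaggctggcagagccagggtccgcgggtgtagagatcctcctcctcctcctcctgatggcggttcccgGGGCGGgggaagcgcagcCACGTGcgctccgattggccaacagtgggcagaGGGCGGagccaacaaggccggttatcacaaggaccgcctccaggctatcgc
Kcna3: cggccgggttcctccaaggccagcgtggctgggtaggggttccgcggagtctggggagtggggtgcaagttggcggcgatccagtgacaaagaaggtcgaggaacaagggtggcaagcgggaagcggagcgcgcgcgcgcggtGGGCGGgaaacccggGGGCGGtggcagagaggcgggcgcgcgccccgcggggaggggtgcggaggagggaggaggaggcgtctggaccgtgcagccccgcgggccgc

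The RefSeq table held a promoter window for 5 of the 7 genes, all but Kcnk6 and Hvcn1. The AP-1 core TGANTCA, searched on both strands, matched 0 of the 5 windows, and 6.75% of the 32851 windows in the table. Likewise 0 of the 5 held the cyclic AMP response element TGACGTCA, found in 1.55% of all windows, or the PU.1 core GAGGAAGT, found in 2.44%. The GC box was present in 4 of the 5, in Kcnn4, Kcnj2, Kcna3 and Kcnmb4, and in 32.7% of all windows. The GC content of these 4 was 58.8%, 65.6%, 74.4% and 83.6%, in that order, and that of Kcnk13 was 52.8%. The median over all windows was 52.4%, and the part of GC content in the GC box count was not tested. The E-box was present in Kcnn4 and Kcnj2, which start it 133 and 84 bases before the annotated start, and in 6.02% of all windows. No match overlapped another. These matches describe the letters of short windows and leave the rest of each locus unread.

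Kcna3 had a log2 signal of 9.60, 9.76 and 9.73 on the fosB-null arrays, against 9.60, 9.76 and 9.62 on the wild-type arrays. The values of pairs 1 and 2 were exactly the same, and the whole difference of 0.04 (SE 0.08, 95% interval -0.15 to 0.23) came from pair 3 at 0.11. The limma unadjusted p was 0.661. An exact tie is not a measurement of equality, and what produced such ties is not recorded in the labels. Of all tested probe sets 27.8% were tied in all 3 pairs.

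Kcnj2 had a log2 signal of 11.46, 11.55 and 11.32 on the fosB-null arrays, against 11.44, 11.70 and 11.43 on the wild-type arrays. The groups overlapped, with the difference positive in pair 1 at 0.02 and negative in pairs 2 and 3 at -0.15 and -0.11. The fitted difference was -0.08 with a standard error of 0.10 and a 95% interval of -0.32 to 0.17 (limma unadjusted p = 0.483). Without wild-type replicate 2 its sign turned, to 0.01.

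The tandem-pore genes varied little. Kcnk6 had 11.36, 11.45 and 11.30 on the fosB-null arrays, against 11.40, 11.42 and 11.32 on the wild-type arrays, a difference of -0.0050 with a 95% interval of -0.18 to 0.17. Kcnk13 had 10.22, 10.23 and 10.31 on the fosB-null arrays, against 10.22, 10.26 and 10.31 on the wild-type arrays, with exact ties in pairs 1 and 3 and a difference of -0.0080 (95% interval -0.17 to 0.15). In both genes the groups overlapped almost completely. The limma unadjusted p was 0.947 for Kcnk6 and 0.908 for Kcnk13.

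Kcnmb4 read 7.04, 7.41 and 7.36 on the fosB-null arrays, against 7.04, 7.41 and 7.38 on the wild-type arrays, so that replicate 1 was low in both groups and pairs 1 and 2 were tied. Its difference was -0.0085 with a 95% interval of -0.34 to 0.32 (limma unadjusted p = 0.953). Whether this signal lies above background is not known here.

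Hvcn1 had the steadiest signal of the 7, with an SD of 0.03 over all 6 arrays. It read 11.61, 11.59 and 11.58 on the fosB-null arrays, against 11.65, 11.59 and 11.65 on the wild-type arrays. The groups overlapped through wild-type replicate 2, and the difference was -0.04 (SE 0.06, 95% interval -0.18 to 0.11, limma unadjusted p = 0.582). In all 17 alternatives run its difference stayed negative, between -0.06 and -0.02, and in none did it pass the adjusted threshold.

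**Figure D2:**
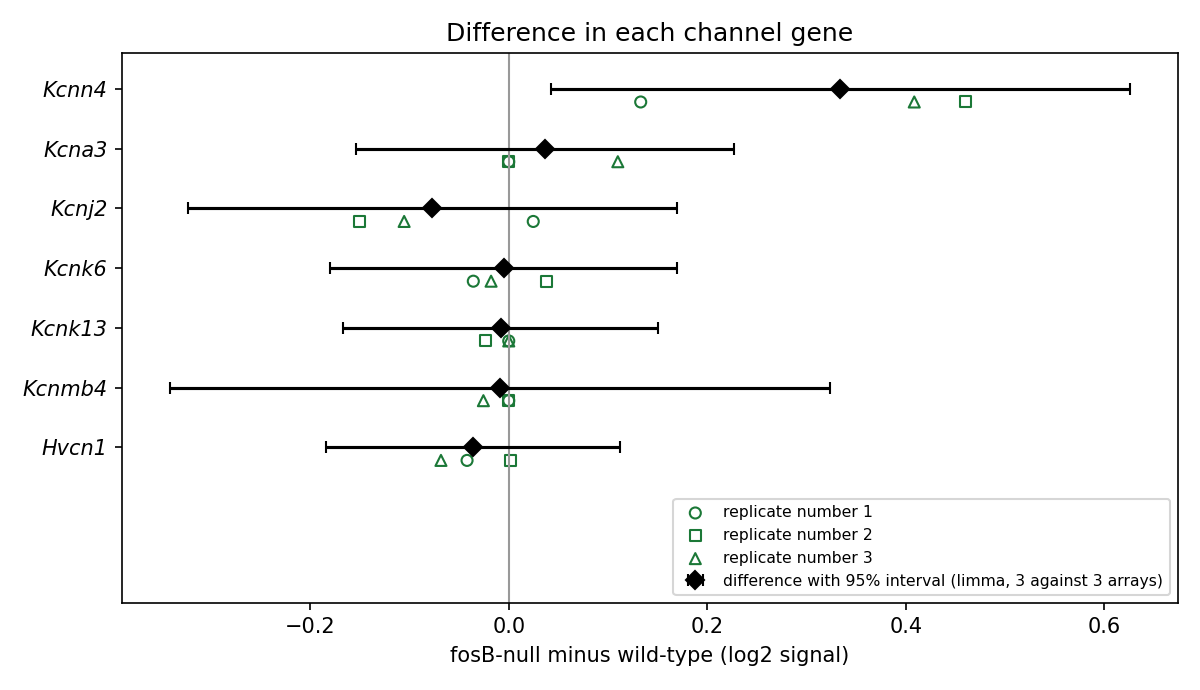
Difference between fosB-null and wild-type arrays for each channel gene on the log2 scale. Diamonds and bars are the limma difference and its 95% interval over 3 against 3 arrays, and open symbols are the differences of same-numbered arrays. The intervals are from the fit without a block. The Kcnn4 interval starts at 0.04, and the intervals of the other 6 genes include 0. With the replicate block the Kcnn4 interval was -0.02 to 0.68 and also included 0.

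These intervals come from the fit without a block, so they include the spread that same-numbered arrays share. With the replicate block the Kcnn4 interval was -0.02 to 0.68, which includes 0, and the Kcnmb4 interval was -0.04 to 0.02. Kcna3, Kcnk13 and Kcnmb4 were each tied in 2 pairs, and a tie is not a measurement of equality, so for them neither fit bounds the change. Without a block the upper bounds for the 6 genes other than Kcnn4 ran from 0.11 for Hvcn1 to 0.32 for Kcnmb4. The lower bounds ran from -0.34 for Kcnmb4 to -0.15 for Kcna3. For Kcnj2, Kcnk6 and Hvcn1, which were tied in no pair, the upper bounds were below the fitted Kcnn4 difference of 0.33. The Kcnn4 interval overlapped each of their intervals, and the difference between genes was not tested.

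Kcnn4 was also compared with the other potassium channel genes. Of 88 measured genes named as potassium channels or their subunits, 6 of the members among them, limma called 0 at the adjusted threshold. An unadjusted p under 0.05 was reached by 1 of the 88, Kcnn4, against 0.722% of all tested probe sets. With the random block also 0 were called, and again only Kcnn4 reached an unadjusted p under 0.05, against 9.63% of all. With the replicate block 0 of the 88 reached it, against 2.31% of all. The family had a median difference of 0.00, with 25 means higher in fosB-null arrays, 21 lower and 42 tied in all pairs. Ties in all pairs thus made up 47.7% of the family, against 27.8% of all tested probe sets. A tie in at least 1 pair was present in 85 of the 88, against 19890 of all 23410. All 82 genes outside the members were among them, whereas Kcnn4 was tied in no pair. A tie is not a measurement of equality, so these genes cannot show how far Kcnn4 stands apart from the family.

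Within the family the differences apart from Kcnn4 ran from -0.08 for Kcnj2 to 0.05. The 8 calcium- or sodium-activated channel genes included the small-conductance relatives of Kcnn4, and Kcnn1, Kcnn2 and Kcnn3 were each tied in all 3 pairs. The large-conductance channel gene Kcnma1, whose channel the Kcnmb4 product modifies, differed by 0.02 (SE 0.07). These 4 were picked with their values in view. Of the other genes outside the 7, those with the lowest unadjusted p were Kcnab3 with -0.04, Kcns2 with -0.04, Kcnk15 with 0.04 and Kcnmb3 with 0.05, at p from 0.593 to 0.650. Each was tied in at least 1 pair, so these values rest on 1 or 2 pairs.

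**Figure D3:**
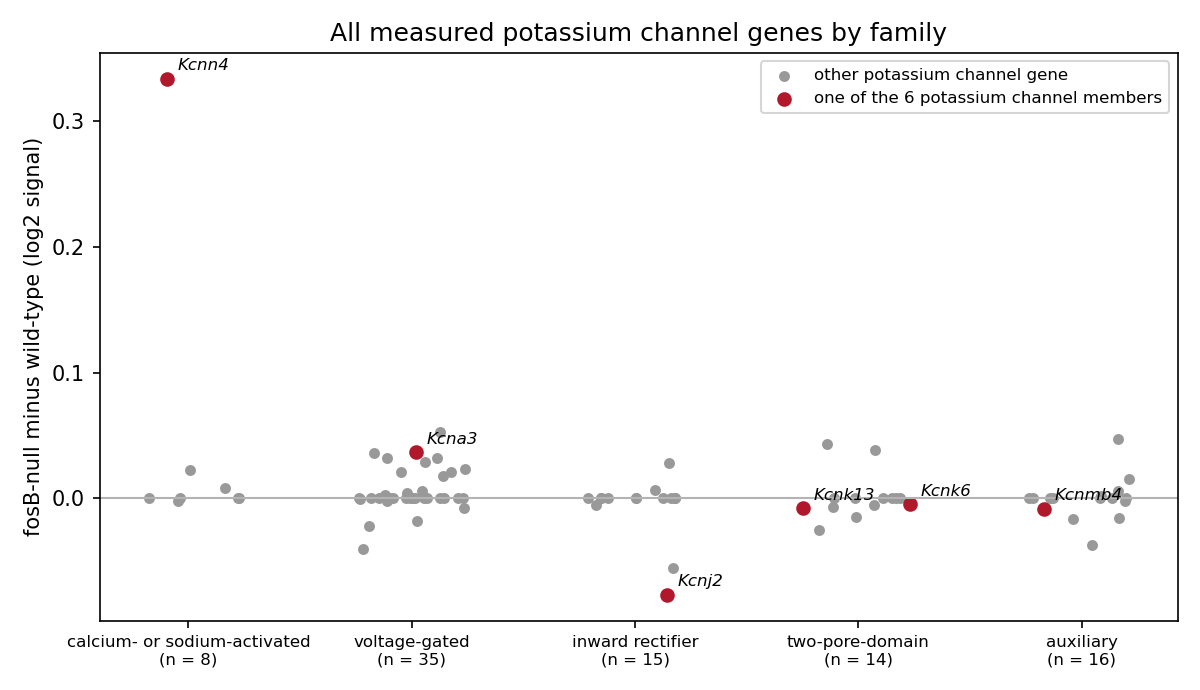
Difference between fosB-null and wild-type arrays on the log2 scale for all 88 measured potassium channel genes, 1 point a gene, grouped by family. Red points are the 6 potassium channel members. Kcnn4 stands at 0.33 and all others lie between -0.08 and 0.05. All 82 genes outside the members were tied in at least 1 pair, and a tie is not a measurement of equality.

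KCa3.1 opens when calcium binds to calmodulin on the channel, and a calmodulin gene differed in the opposite direction. Calm3 had a log2 signal of 11.37, 11.52 and 11.14 on the fosB-null arrays, against 11.74, 11.70 and 11.65 on the wild-type arrays. Every fosB-null array was below every wild-type array, and separation in either direction was found in 1.12% of all tested probe sets. The difference was -0.35 with a standard error of 0.11 (limma unadjusted p = 0.0132, adjusted p = 1), and the adjusted p was 0.120 with the random block. Calm2, which encodes the same protein, differed by -0.05 (SE 0.09) in its brighter and by -0.03 (SE 0.07) in its other probe set. The brighter was lower in all 3 pairs, by -0.05, -0.03 and -0.05, and with the replicate block its 95% interval was -0.07 to -0.02 (limma unadjusted p = 0.0112, adjusted p = 0.674).

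Of the regulators of KCa3.1 other than Calm3 none differed by more than 0.06. Limma called 0 of the 7 measured genes of that list, and 1, Calm3, reached an unadjusted p under 0.05, against 0.722% of all tested probe sets. With the replicate block 2 did, Calm3 and Calm2, against 2.31% of all, and with the random block these 2 did, against 9.63% of all, and 0 passed the adjusted threshold. Pik3c2b, a lipid kinase needed for channel activity in T cells, differed by 0.06, and Phpt1, the histidine phosphatase that inhibits the channel, by -0.04, each through 1 pair with ties in the other two. The list's median difference was -0.0047.

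Partners of Hv1 were compared next. Among 6 measured NADPH oxidase genes limma called 0 and none reached an unadjusted p under 0.05, with a median difference of 0.03. Ncf4 differed by 0.08 (SE 0.07), Ncf1 by 0.04 (SE 0.06) and the small GTPase gene Rac2 by 0.04 (SE 0.09). Of 3 measured genes listed as proton or acid transporters the sodium-proton exchanger gene Slc9a9 differed by 0.13 (SE 0.14). The monocarboxylate transporter genes Slc16a3 and Slc16a1 differed by 0.03 and -0.0028. Limma called 0 of these 3 and none reached an unadjusted p under 0.05.

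The pumps and cotransporters that carry potassium showed no call either. Of 4 measured genes 0 reached an unadjusted p under 0.05 in limma. With the random block 1 did, Slc12a2, against 9.63% of all tested probe sets, and 0 passed the adjusted threshold. The sodium pump subunit gene Atp1b1 differed by -0.25 (SE 0.17), almost all of it from pair 2 at -0.73. The cotransporter gene Slc12a2 differed by 0.10 (SE 0.07) and the pump subunit gene Atp1b3 by -0.06 (SE 0.08). The median of the 4 was -0.04.

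Among 21 other ion channel genes of microglia limma called 0, and none reached an unadjusted p under 0.05, while with the random block 5 did, against 9.63% of all tested probe sets, and 0 passed the adjusted threshold. The mechanically gated channel gene Piezo1 had 12.52, 12.64 and 12.54 on the fosB-null arrays, against 12.40, 12.40 and 12.45 on the wild-type arrays, a difference of 0.15 (SE 0.07, limma unadjusted p = 0.0616). The groups did not overlap in 2 of the 21, Piezo1 with fosB-null arrays higher and 1 other with them lower, against 1.12% of all tested probe sets. The store-operated calcium channel gene Orai3 differed by -0.14 (SE 0.08) and the volume-regulated anion channel gene Lrrc8d by -0.14 (SE 0.09). The median of the 21 was -0.0071, and 13 of them had lower and 7 higher means in fosB-null arrays.

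Kcnn4 and Kcnk6 both lie on chromosome 7, as Fosb does. The other 5 lie elsewhere, Kcna3 on chromosome 3, Hvcn1 on 5, Kcnmb4 on 10, Kcnj2 on 11 and Kcnk13 on 12. In the RefSeq gene order 56 measured genes lie between Fosb and Kcnn4, 195 between Fosb and Kcnk6 on the same side, and 52 between Fosb and Calm3 on the other side. The Fosb probe set itself had 7.82, 8.05 and 7.83 on the fosB-null arrays, against 8.01, 8.14 and 7.92 on the wild-type arrays. That is a difference of -0.12 (SE 0.10), and it checks no label, since where it lies on the mutated gene is not stated.

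Kcnn4 was set beside its 10 closest measured genes in each direction along the chromosome. Limma called 0 of these 20, and 3 reached an unadjusted p under 0.05, against 0.722% of all tested probe sets. All 3 were lower in fosB-null arrays: the zinc finger genes Zfp111 with -0.70 and Zfp109 with -0.34, and the urokinase receptor gene Plaur with -0.43. With the random block 1 of the 20 was called, Zfp111, at an adjusted p of 0.00493, and 6 reached an unadjusted p under 0.05, against 9.63% of all. Of the 20, 10 had lower means, 3 higher means and 7 were tied in all pairs, with a median of -0.00031. In all 3 pairs 1 of the 20 was higher and 5 were lower, against 515 and 1305 of all 23410 tested probe sets.

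Neither of the genes directly beside Kcnn4 was higher in fosB-null arrays. Lypd5, on the side of Fosb, was tied in all 3 pairs, which gives no direction. Smg9, on the other side, a subunit of the nonsense-mediated decay machinery, had 9.81, 9.86 and 9.65 on the fosB-null arrays, against 9.86, 10.07 and 9.83 on the wild-type arrays. It differed by -0.15 (SE 0.10, limma unadjusted p = 0.165), and the groups overlapped. Among the 56 measured genes between Fosb and Kcnn4, 7 reached an unadjusted p under 0.05, against 0.722% of all tested probe sets, and all 7 were lower in fosB-null arrays. Limma called 0 of the 56, while with the random block 5 were called, all lower, against 0.201% of all, and 18 reached an unadjusted p under 0.05, against 9.63% of all. The groups were separate with fosB-null arrays higher in 2 of the 56, against 0.41% of all. They were separate with fosB-null arrays lower in 7 of the 56, against 166 of all 23410. In all 3 pairs 5 of the 56 were higher and 13 lower, against 515 and 1305 of all 23410. The highest difference among those 56 was 0.19, below that of Kcnn4. Whether the DNA around the null allele differs from that of C57BL/6J is not stated in the labels, and loss of Fosb and any such linked difference cannot be told apart in these groups.

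**Figure D4:**
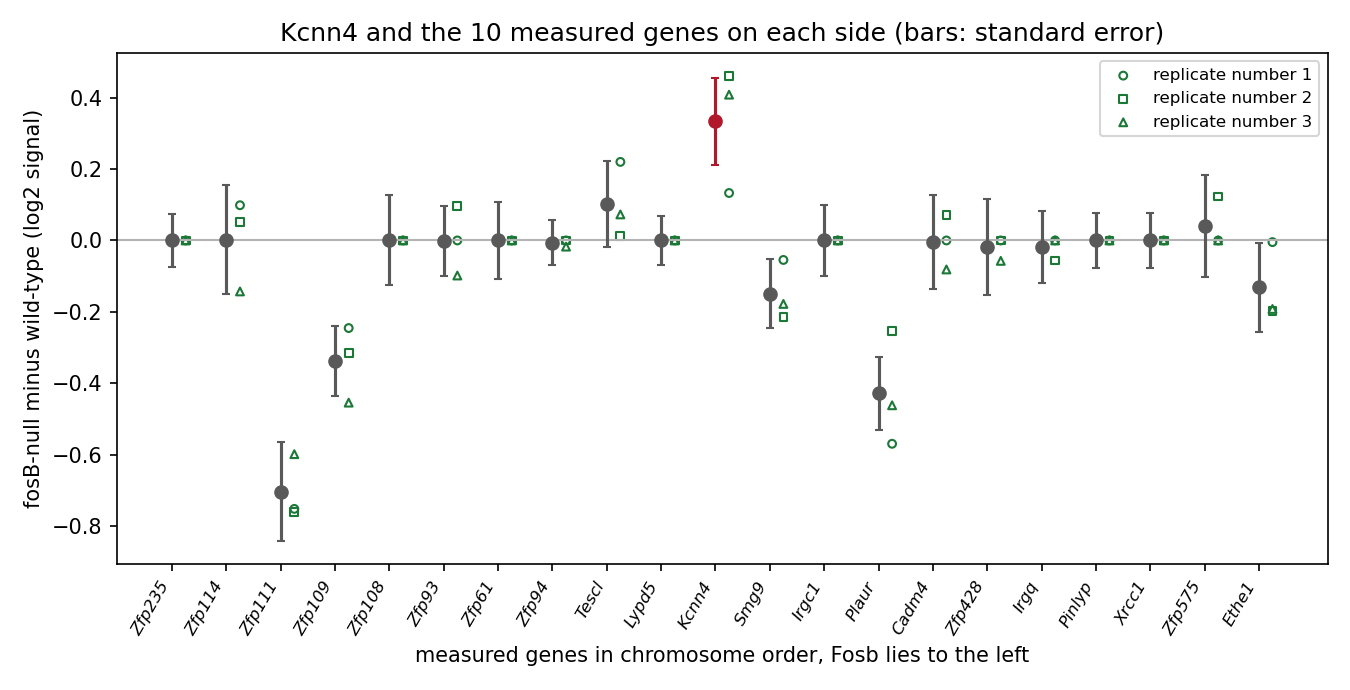
Difference between fosB-null and wild-type arrays on the log2 scale for Kcnn4, in red, and the 10 measured genes on each side of it in chromosome order. Bars are standard errors of the limma fit and open symbols the differences of same-numbered arrays. Kcnn4 is highest at 0.33, and Zfp111, Plaur and Zfp109 are lowest at -0.70, -0.43 and -0.34.

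The genes whose signal followed Kcnn4 most closely over the 6 arrays were found by Pearson's r among 9475 genes that varied enough over the arrays (an SD of at least 0.5 times that of Kcnn4). They were Nbeal1 with r = 0.961, Eif2s3x with 0.904, Xist with 0.892, the guanine nucleotide exchange factor gene Fgd4 with 0.887 and Pou5f2 with 0.870. With 6 arrays in pairs such values describe likeness only. Xist, the RNA that silences an X chromosome in female cells, had 12.68, 12.88 and 12.81 on the fosB-null arrays, against 12.78, 12.42 and 11.81 on the wild-type arrays. Wild-type replicate 3 was thus the lowest array for both Xist and Kcnn4.

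Sex-linked genes were therefore set beside Kcnn4, a step added after the data were seen. The Y-linked gene Eif2s3y had 9.44, 9.48 and 9.22 on the fosB-null arrays, against 9.52, 10.05 and 9.98 on the wild-type arrays. All fosB-null arrays were lower than all wild-type arrays (difference -0.47, SE 0.15, limma unadjusted p = 0.0199, adjusted p = 1). Separation in either direction was found in 1.12% of all tested probe sets. Kdm5d and Uty, also Y-linked, differed by -0.33 and -0.22. In pairs 1, 2 and 3 Xist differed by -0.10, 0.47 and 1.00, Eif2s3x by 0.03, 0.18 and 0.20, and Kcnn4 by 0.13, 0.46 and 0.41. The part of the sex of the pups in the Kcnn4 difference was not tested.

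Proliferation genes had a higher mean signal in fosB-null arrays in pairs 1 and 2 but not in pair 3, and none passed the adjusted threshold. This mean, on the log2 scale over 11 measured genes, was 9.60, 10.31 and 9.58 on the fosB-null arrays, against 8.65, 9.26 and 9.58 on the wild-type arrays. In limma 0 passed the adjusted threshold, and 5 of the 11 reached an unadjusted p under 0.05, against 0.722% of all tested probe sets, all 5 higher in fosB-null arrays. Of the 11, 0 reached it with the replicate block, against 2.31% of all, and with the random block all 11, against 9.63% of all, with 0 past the adjusted threshold in either fit. The 5 included the mitotic genes Ccnb2 with 0.78, Bub1 with 0.89 and Melk with 0.31. In pairs 1, 2 and 3 the list mean differed by 0.95, 1.05 and -0.0030, and Kcnn4 by 0.13, 0.46 and 0.41. The part of proliferation in the Kcnn4 difference was not tested.

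The members did not move as one group over the 6 arrays. Pearson's r with Kcnn4, given only as a description of these paired arrays, ran from -0.61 for Kcnk13 to 0.54 for Kcnk6. The closest pair of members was Kcna3 and Kcnmb4 with r = 0.786, both low on replicate 1 of each group, followed by Kcnj2 and Kcnk6 with 0.750, both highest on replicate 2 of each group. Kcnn4 was highest on replicate 2 in fosB-null arrays and on replicate 1 in wild-type arrays.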

How the data were processed

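The deposited values are log2 signals, 1 per probe set and array. Per the submitters' processing notes the authors made them with Affymetrix Expression Console. That the scale is log2 follows from the range of the values. Its version, the summary method and the normalization were not given in the sources used here. Each array was labelled from 100 ng of total RNA, per the labels' protocols. Of 35557 probe sets, the platform's table lists a single symbol for 21789, more than 1 for 1621 and no symbol for 12147. Symbols were updated by gene number through RefSeq GRCm38.p6 where it held the gene (21698 probe sets), and RefSeq gave the order of genes.

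Differences are fosB-null minus wild-type from limma 3.58.1 in R 4.3.3 (lmFit, eBayes, two-sided) over all 23410 probe sets with a symbol, with Benjamini-Hochberg adjustment, a threshold of 0.05 and no block or filter. The fit was tested on simulated data. Having 3 arrays a group limits the precision. Arrays of the same number deviated together from their group means (r = 0.911, 0.821 and 0.820, and 0.724, 0.326 and 0.320 over probe sets tied in no pair) and held 45.2% to 51.3% identical values, against at most 3 values between other arrays. The numbers were therefore taken as pairs, on the evidence of the values and not of the labels. Alternatives were the replicate block, a random block, median centring, quantile normalization, leaving out the dimmest 40%, single-symbol probe sets, a robust fit with trend, array weights and leaving out arrays. Named genes are the 7 members, Fosb, calmodulin genes, up to 4 further potassium channel genes and 3 per other list by lowest p, neighbours of Kcnn4 that are nearest or under p 0.05, and the 5 genes most like Kcnn4. Where a gene had several probe sets, the brightest stood for it. Members and lists were chosen with earlier results of these data known.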

Additional observations from a re-analysis of the deposited data

How the results depend on the processing

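Under all alternatives, which include leaving out single arrays and, as an addition after seeing the data, both arrays of a number, Kcnn4 stayed higher in fosB-null arrays and never passed the adjusted threshold. Its difference was 0.33 with quantile normalization, 0.31 with median centring and 0.26 with array weights, from 0.23 to 0.42 without single arrays, and 0.43, 0.27 and 0.30 without replicate numbers 1, 2 and 3. With the replicate block it was 0.33, and that block changed no call among the 7 genes, the potassium channel list, the other lists or the neighbours. The random block called 1 neighbour of Kcnn4, Zfp111, against 0. Its difference of -0.70 was the same in both fits, and its SE was 0.04 with the random block and 0.14 without a block. Signs turned only for differences near 0. Kcnj2 ranged from -0.13 to 0.011 without single arrays, positive only without wild-type replicate 2. Kcnk6 ranged from -0.046 to 0.032 without single arrays and was 0.0103 and 0.00135 without replicate numbers 1 and 3. Kcnk13 was 0.00272 with quantile normalization and ranged from -0.035 to 0.015 without single arrays, and Kcnmb4 ranged from -0.13 to 0.11. With the filter on the dimmest 40% Kcnmb4 was not tested. Over all tested probe sets the count of calls was 1, but 47 with the random block, 0 with the replicate block, 2 without wild-type replicate 3 and 0 without any one replicate number. The number of arrays, 3 a group, limits what these intervals can show.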
